A study of Mus musculus with 6 samples.

Results

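The 45 genes described here encode the proteasome, with its regulators and a few relatives named after it. They are all rows of the 24014 in each count table whose symbol begins with Psma, Psmb, Psmc, Psmd or Psme and a digit. The rule uses symbols alone and no measured value. A filter on low counts kept 43 of the 45 among 14028 genes tested. By role they are 7 alpha and 7 constitutive beta subunits of the 20S core, 17 subunits of the 19S regulatory particle (6 ATPases and 3 other subunits of its base, and 8 of its lid), 3 chaperones of the base, 3 inducible catalytic subunits of the immunoproteasome, 4 genes of the PA28 and PA200 activators, 2 tissue-restricted core subunits, and 2 further symbols. Of these last, Psme2b is a retrocopy of Psme2, and Psmc3ip is a meiotic recombination factor that is not a proteasome subunit.

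The 6 libraries came from the epidermal cells of newborn wild type mouse back skin at postnatal day 2. In 3 libraries the skin had been raised into a suction blister and was healing. The other 3 came from control skin without a blister, and all 6 shared the genotype, age and trypsin treatment. The samples were whole cell suspensions freed with trypsin, so in these bulk values fewer cells of a type and less RNA per cell cannot be told apart. Whether a group's libraries were made from different animals is not in the labels. The sex-linked genes Xist and Ddx3y, described below, differed between libraries within each group, so each group drew on animals of both sexes. Whether libraries of the same sex share an animal is not known. The p-values therefore measure the spread between libraries, which may be technical in part.

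The proteasome is the protease that breaks down proteins marked with ubiquitin. Its core is a barrel of stacked rings: alpha subunits gate the entrance and beta subunits line the chamber, where Psmb5, Psmb6 and Psmb7 carry the active sites. The regulatory particle caps the barrel, recognises ubiquitin, removes it and threads the unfolded substrate inward with a ring of ATPases. Together core and cap form the 26S particle. Interferon induces Psmb8, Psmb9 and Psmb10, which replace the constitutive active subunits in newly made particles and alter the peptides offered to MHC class I, and when proteasome activity runs short the transcription factor Nfe2l1 induces the subunit genes together.

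All 31 subunit genes of the 26S particle that the rule names had higher mean levels in blister than in control skin. Most rose by a similar small step, and 12 of the 31 passed the test. Read as CPM (read counts divided by library total and a TMM composition factor), the 43 genes had a median log2 fold change, blister over control, of 0.42, or 1.34-fold, against 0.00 for all genes tested. In the quasi-likelihood test of edgeR, with Benjamini-Hochberg adjusted p under 0.05 as the threshold, 13 of the 43 (30.2%) rose and 0 fell. Of all genes tested 9.74% rose and 21.3% passed in either direction. At an unadjusted p under 0.05 in the same test there were 33. The genes that rose were Psma1, Psma3, Psmb3, Psmb5, Psmc1, Psmc6, Psmd1, Psmd2, Psmd6, Psmd12, Psmd13, Psmd14 and the activator gene Psme3. The log2 fold change was above 0 for 42 of 43, the exception being Psmc3ip, and for 50.1% of all genes tested. In 28 of 43 the 3 blister libraries all lay above the 3 controls, which held for 21.4% of all genes tested.

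Sequence upstream of the start is shown for 6 subunits: the gene with the smallest p in each of the 5 classes of the 26S particle, and Psmd12, which had the second smallest p of all 43. They are given because these genes, scattered over 6 chromosomes, rose together. Each is the run of 250 bases before the annotated start, read 5′ to 3′ along the gene's strand, from RefSeq on GRCm38.p6, a later build than the one used for counting. Capitals mark matches on either strand to 6 motifs: the antioxidant response element core read by Nfe2l1 and Nfe2l2 (TGACNNNGC), the motif of ETS factors (CCGGAAG), the CCAAT box, the GC box (GGGCGG), the element of interferon regulatory factors, and the gamma-activated sequence of interferon signalling (TTCNNNGAA). The marked matches do not overlap each other.
Psma1 (chr7:114276117-114276366, minus strand): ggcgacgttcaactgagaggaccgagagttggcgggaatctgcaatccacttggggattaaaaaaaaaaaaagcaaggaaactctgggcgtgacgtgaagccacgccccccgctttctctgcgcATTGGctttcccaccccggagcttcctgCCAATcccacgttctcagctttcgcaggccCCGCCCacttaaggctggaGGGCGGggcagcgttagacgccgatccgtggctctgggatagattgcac
Psmb5 (chr14:54617996-54618245, minus strand): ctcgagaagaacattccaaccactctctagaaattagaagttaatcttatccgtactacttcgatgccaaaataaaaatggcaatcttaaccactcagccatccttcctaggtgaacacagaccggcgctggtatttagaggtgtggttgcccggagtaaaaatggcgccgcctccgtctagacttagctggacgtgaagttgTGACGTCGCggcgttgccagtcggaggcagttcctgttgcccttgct
Psmc1 (chr12:100109952-100110201, plus strand): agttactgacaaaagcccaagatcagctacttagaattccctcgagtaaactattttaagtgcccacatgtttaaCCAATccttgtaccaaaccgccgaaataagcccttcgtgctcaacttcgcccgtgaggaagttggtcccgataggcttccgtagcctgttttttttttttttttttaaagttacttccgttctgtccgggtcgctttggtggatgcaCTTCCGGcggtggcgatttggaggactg
Psmd2 (chr16:20651402-20651651, plus strand): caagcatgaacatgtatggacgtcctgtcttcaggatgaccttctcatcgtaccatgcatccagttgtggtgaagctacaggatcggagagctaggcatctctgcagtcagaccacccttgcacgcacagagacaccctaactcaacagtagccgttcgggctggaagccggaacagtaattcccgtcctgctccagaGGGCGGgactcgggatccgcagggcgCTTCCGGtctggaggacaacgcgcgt
Psmd14 (chr2:61711444-61711693, plus strand): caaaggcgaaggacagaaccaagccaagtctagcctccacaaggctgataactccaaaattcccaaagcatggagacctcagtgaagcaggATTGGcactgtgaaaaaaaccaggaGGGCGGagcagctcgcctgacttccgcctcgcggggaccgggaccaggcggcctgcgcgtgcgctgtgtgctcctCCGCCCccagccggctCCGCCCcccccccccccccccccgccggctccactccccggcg
Psmd12 (chr11:107479278-107479527, plus strand): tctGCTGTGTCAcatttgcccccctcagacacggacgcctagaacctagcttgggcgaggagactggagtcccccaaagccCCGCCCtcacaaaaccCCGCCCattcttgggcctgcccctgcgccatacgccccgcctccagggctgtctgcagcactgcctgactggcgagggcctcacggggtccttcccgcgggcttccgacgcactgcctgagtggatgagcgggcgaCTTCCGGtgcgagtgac
The ETS motif stood near the start of Psmc1, Psmd2 and Psmd12, in each on the strand opposite the gene. The antioxidant response element core was in the windows of Psmb5 and Psmd12. Of the 45 genes 38 matched the RefSeq promoter table, with 41 windows of 300 bases (250 before the start and 50 after). Over these windows the ETS motif was in 14 of 41 (34.1%) and in 8.86% of all 32851 windows in the table. The GC box was in 56.1% and 35.7%, and the CCAAT box in 36.6% and 37.4%. The antioxidant response element core was in 6 of 41 (14.6%) and 12.4%. The interferon regulatory factor element was in 4 windows (9.76% and 3.44%) and the gamma-activated sequence in 2 (4.88% and 8.30%). The windows of proteasome genes were richer in G and C (median 57.3%) than all windows (52.7%), and the motifs differ in base composition. A match is a description of these letters, not a binding site.

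**Figure D1:**
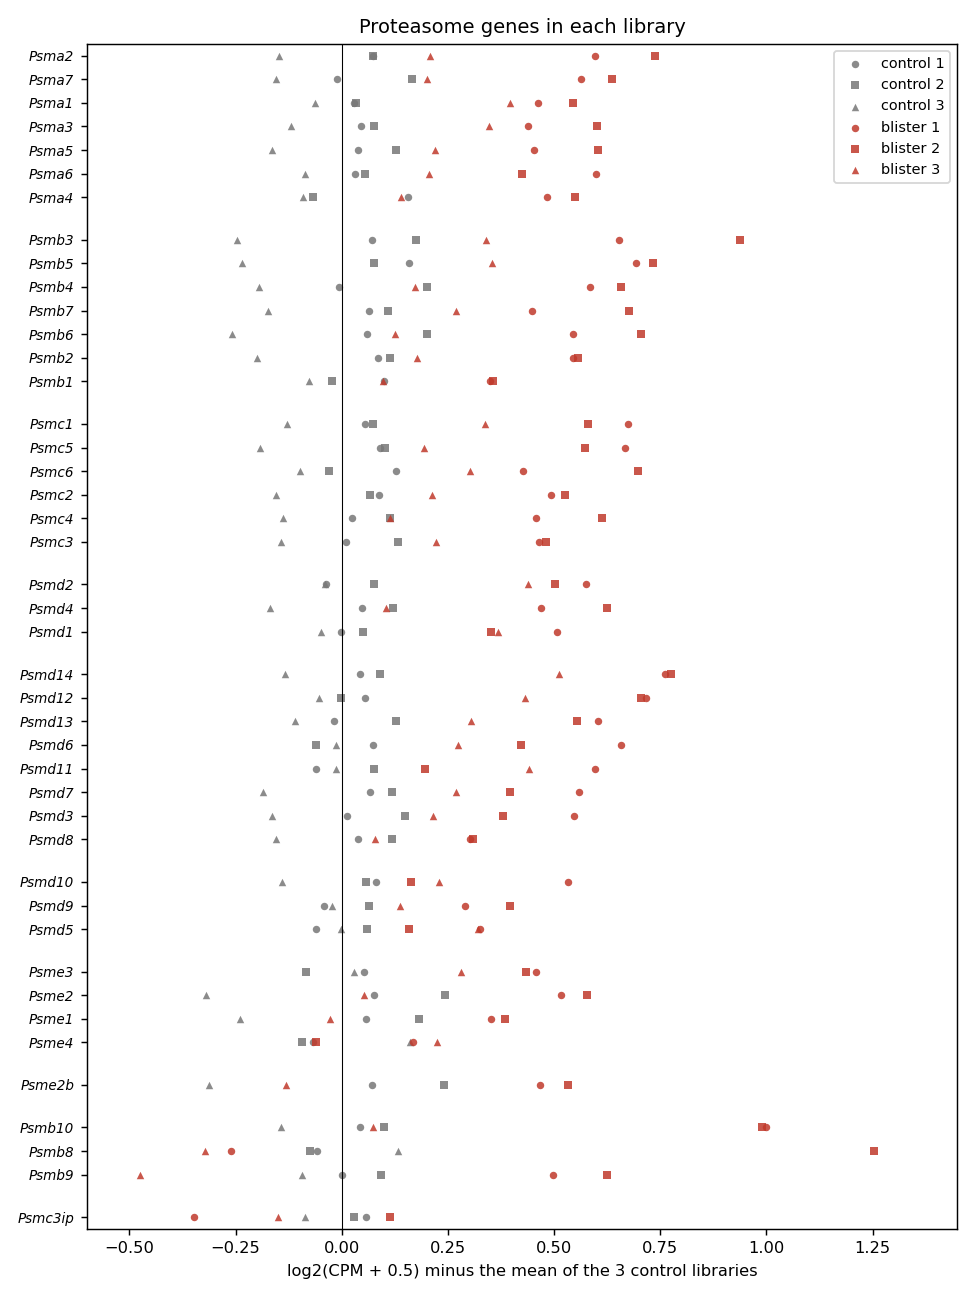
Level of each tested proteasome gene in each library, as log2(CPM + 0.5) minus the mean of the 3 control libraries (x axis), grouped by class. Circles, squares and triangles are replicates 1, 2 and 3, with blister in red and control in grey. Blister 1 and 2 lie to the right of the controls for all 31 subunits of the 26S particle that the rule names. Blister 3 lies nearer to the controls, and the immunoproteasome genes near the bottom spread most.

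The 7 genes of the alpha ring had similar changes. They spanned log2 fold changes of 0.40 to 0.53, and 2 of the 7 rose, against 9.74% of all genes tested. In 6 of the 7 the blister libraries lay above the controls without overlap, against 21.4% of all genes tested. These shares of all genes stand beside the counts of each class that follows. Psma1, an alpha subunit of the outer ring and the class's smallest p, was at 177, 187 and 169 CPM over blister 1 to 3, compared with 131, 131 and 123 CPM over control 1 to 3. All blister libraries lay above all controls, and the difference was 0.47 ± 0.10 (SE) on the log2 scale, with an edgeR adjusted p of 0.0215. Psma3 rose as well (log2 fold change 0.47, edgeR adjusted p = 0.0309). Psma2 had the largest fold change of the ring, at 209, 231 and 160 CPM against 146, 145 and 125 CPM. Its groups did not overlap either, and at 0.53 ± 0.16 (SE) its edgeR adjusted p was 0.0522. Psma4 had the smallest, 0.40 ± 0.14 (SE, edgeR adjusted p = 0.0822), from 138, 144 and 108 CPM over the blister libraries against 110, 94.0 and 92.4 CPM, where blister 3 lay just below control 1.

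The beta ring varied more, from 0.27 to 0.66, with 2 of 7 genes called and 4 of 7 without overlap. Psmb5 encodes the chymotrypsin-like active site, the target of bortezomib. It was at 175, 180 and 138 CPM over blister 1 to 3, compared with 121, 114 and 91.7 CPM over control 1 to 3. Blister 3 was the lowest of its group and still above each control, and Psmb5 rose by 0.59 ± 0.15 (SE, edgeR adjusted p = 0.0347) on the log2 scale. Psmb3, a non-catalytic beta subunit, had the largest fold change of the ring at 118, 144 and 94.9 CPM against 78.8, 84.6 and 63.0 CPM. Its groups did not overlap, and it rose by 0.66 ± 0.18 (SE, edgeR adjusted p = 0.0415) on the log2 scale. The other 2 catalytic genes did not pass. Psmb6, the caspase-like subunit, was at 215, 240 and 161 CPM against 154, 169 and 123 CPM, so that blister 3 fell below control 2 (0.47 ± 0.19, edgeR adjusted p = 0.107). Psmb7, the trypsin-like subunit, was at 167, 195 and 147 CPM against 128, 132 and 108 CPM, with no overlap (0.47 ± 0.14, edgeR adjusted p = 0.0534). Psmb1, also non-catalytic, had the smallest fold change, at 233, 234 and 196 CPM against 196, 180 and 173 CPM (0.27 ± 0.12, edgeR adjusted p = 0.146), with blister 3 level with control 1.

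In the base of the regulatory particle 2 of 6 ATPase genes rose, over a range of 0.39 to 0.54, and 5 of 6 did not overlap. Psmc1, the ATPase known as Rpt2, was at 233, 218 and 185 CPM over blister 1 to 3, compared with 152, 154 and 133 CPM over control 1 to 3. Each blister library was above each control, by 0.54 ± 0.13 (SE) on the log2 scale, with an edgeR adjusted p of 0.0287. Psmc6, the ATPase Rpt4, rose by 0.48 ± 0.14 (edgeR adjusted p = 0.0433). Psmc3, the ATPase Rpt5, had the smallest change of the ring at 263, 266 and 222 CPM against 191, 209 and 172 CPM. Its groups did not overlap, at 0.39 ± 0.13 and an edgeR adjusted p of 0.0699.

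Of the 3 other base genes 2 rose, the scaffolds Psmd2 (Rpn1) and Psmd1 (Rpn2). Psmd2 was at 473, 449 and 430 CPM over the blister libraries against 309, 334 and 309 CPM. Its 3 blister values lay close together and far from the controls (0.51 ± 0.11, edgeR adjusted p = 0.0236), and Psmd1 rose by 0.41 ± 0.11 (edgeR adjusted p = 0.0363). Psmd4, the ubiquitin receptor Rpn10, was at 243, 270 and 188 CPM against 181, 191 and 156 CPM. Blister 3 fell between the controls, and at 0.41 ± 0.16 the edgeR adjusted p was 0.104.

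The lid held both the largest and the smallest change among the 26S subunits of the rule. Psmd14 (Rpn11), the deubiquitinase that cuts the ubiquitin chain from a substrate as it enters, was at 136, 137 and 114 CPM over blister 1 to 3, compared with 82.5, 85.2 and 72.9 CPM over control 1 to 3. The lowest blister library stood well above the highest control, and the log2 fold change of 0.69 ± 0.12 (SE) had an edgeR adjusted p of 0.013. Psmd12 (Rpn5), a structural lid subunit chosen after its values were seen, was at 199, 197 and 163 CPM against 126, 121 and 116 CPM, again without overlap (0.62 ± 0.12, edgeR adjusted p = 0.0151). Psmd13 (0.49, edgeR adjusted p = 0.0331) and Psmd6 (0.46, edgeR adjusted p = 0.0416), also structural, rose too. Psmd8 (Rpn12) was at 266, 268 and 228 CPM against 222, 234 and 194 CPM, with blister 3 below control 2 (0.23 ± 0.13, edgeR adjusted p = 0.227). In all, 4 of 8 lid genes rose and 7 of 8 did not overlap.

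**Figure D2:**
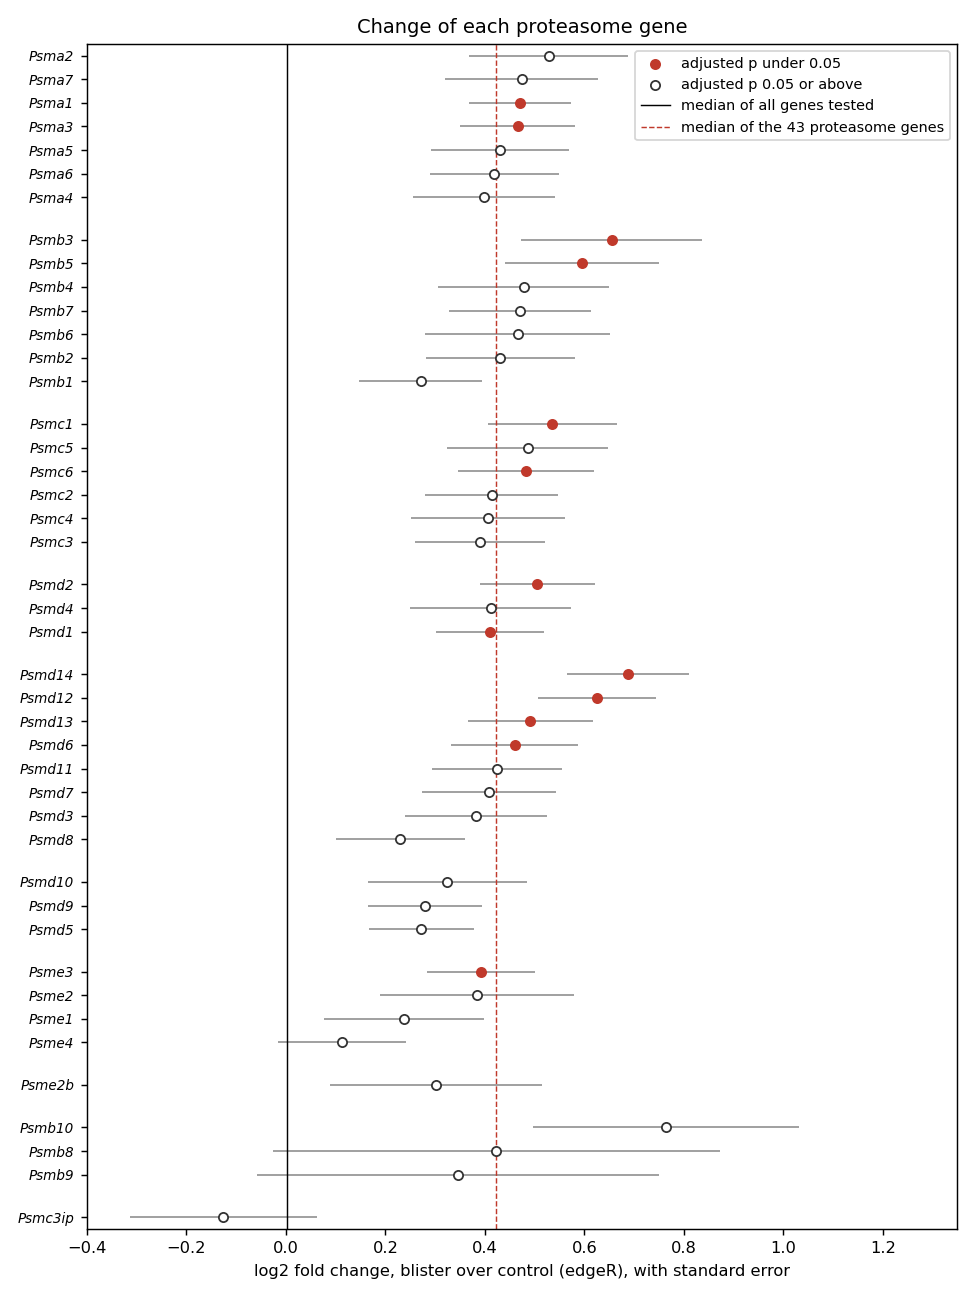
Log2 fold change, blister over control, of each tested proteasome gene from edgeR (x axis) with its standard error, by class. Filled points have an adjusted p under 0.05, the solid line is the median of all genes tested (0.00) and the dashed line that of the 43 proteasome genes (0.42). Most 26S subunits sit near the dashed line within their standard errors. The 3 immunoproteasome genes have the widest errors, and of these Psmb10 lies farthest from the dashed line.

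Set side by side, the 31 subunits of the 26S particle that the rule names had log2 fold changes of 0.23 to 0.69. Their SD was 0.10 and their median 0.47 (1.38-fold), with 12 of 31 called (38.7%). The median standard error of a single gene was 0.13. It measures spread between libraries, which the subunits share in part, so it does not measure how far subunits differ from each other. The 20S core and the 19S particle had medians of 0.47 and 0.42, with 4 of 14 and 8 of 17 called. The libraries of a group differed from each other across subunits. Set against the mean of the controls, the median 26S subunit was at 0.55, 0.57 and 0.22 on the log2 scale over blister 1 to 3, compared with 0.05, 0.09 and -0.14 over control 1 to 3. Blister 3 was the lowest blister library for 29 of 31 subunits, and 24 of its 31 values were above all controls, compared with 31 of 31 in blister 1 and in blister 2. Xist, the RNA of the inactive X chromosome, was high in 3 libraries (blister 1, blister 2 and control 1), and the Y-linked Ddx3y in the other 3. By these genes sex was not balanced between the groups. Within each of these sets the blister medians were above the control medians: 0.55 and 0.57 against 0.05 in the first, and 0.22 against 0.09 and -0.14 in the second, where blister had 1 library. With so few libraries in each set this is a description only. With Xist as a covariate the median of the 43 genes was 0.35 and 3 were called, where 4.95% of all genes rose. The part of sex in these values was not tested.

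The 3 chaperones that assemble the base did not pass, although in each the blister libraries lay above the controls. Psmd5 was at 61.8, 54.9 and 61.6 CPM against 47.2, 51.3 and 49.1 CPM (0.27 ± 0.11, edgeR adjusted p = 0.1004), and Psmd9 had a log2 fold change of 0.28 (edgeR adjusted p = 0.116). Psmd10, also called gankyrin, was at 25.8, 19.8 and 20.8 CPM against 18.7, 18.4 and 16.0 CPM (0.32 ± 0.16, edgeR adjusted p = 0.171). Only blister 1 was far from the controls in Psmd10.

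Among the activators, which cap the core in place of the 19S particle without needing ubiquitin, 1 of 4 genes rose. Psme3, the nuclear PA28 gamma, was at 193, 190 and 170 CPM over blister 1 to 3, compared with 145, 132 and 143 CPM over control 1 to 3. The groups did not overlap, and the log2 fold change was 0.39 ± 0.11 (SE, edgeR adjusted p = 0.0407). Psme1 and Psme2, the interferon-inducible PA28 alpha and beta, did not pass. Psme1 was at 92.7, 94.8 and 71.2 CPM against 75.5, 82.4 and 61.4 CPM (0.24 ± 0.16, edgeR adjusted p = 0.305). Psme2 was at 72.0, 75 and 52.0 CPM against 52.9, 59.4 and 40.0 CPM (0.38 ± 0.19, edgeR adjusted p = 0.184). In both, blister 3 fell among the controls. The retrocopy Psme2b was at 91.6, 95.8 and 60.3 CPM against 69.5, 78.2 and 53.1 CPM (0.30 ± 0.21, edgeR adjusted p = 0.326), and since its sequence is nearly that of Psme2, reads may be shared between them. Psme4, which encodes PA200, was at 153, 130 and 159 CPM against 130, 127 and 152 CPM (0.11 ± 0.13, edgeR adjusted p = 0.546), with the groups interleaved.

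None of the immunoproteasome genes passed: 0 of 3 had an adjusted p under 0.05 in edgeR, 1 of 3 had an unadjusted p under 0.05, and all 3 overlapped between groups. Psmb10, which replaces Psmb7, was at 23.7, 23.5 and 12.2 CPM over blister 1 to 3, compared with 12, 12.5 and 10.5 CPM over control 1 to 3. Blister 1 and 2 were well above the controls and blister 3 was among them. The log2 fold change of Psmb10, 0.76 ± 0.27 (SE), had an edgeR adjusted p of 0.0773. With 1 library left out, Psmb10 was called in 1 of 6 fits. The edgeR adjusted p ran from 0.0096 without blister 3 (log2 fold change 1.03) to 0.216 without blister 1. Without blister 3, 13.9% of all genes rose. Psmb8, which replaces Psmb5, was at 5.60, 16.9 and 5.35 CPM against 6.52, 6.44 and 7.51 CPM. The single high library, blister 2, set its log2 fold change of 0.42 ± 0.45 (edgeR adjusted p = 0.517), which was -0.31 without that library. Psmb9, which replaces Psmb6, was at 2.48, 2.75 and 1.02 CPM against 1.61, 1.75 and 1.48 CPM (0.35 ± 0.40, edgeR adjusted p = 0.559), with blister 3 the lowest of all 6 libraries.

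Set against its constitutive partner, each inducible subunit shows whether the balance of the catalytic pair shifted, a measure free of library scaling. Reads of Psmb8 were 3.20%, 9.42% and 3.87% of those of Psmb5 over blister 1 to 3, compared with 5.41%, 5.65% and 8.19% over control 1 to 3. The mean log2 ratio was lower in blister by 0.36, with a two-sided exact permutation p of 0.5 (0.75 after Benjamini-Hochberg adjustment over the 3 ratios). Reads of Psmb9 were 1.15%, 1.14% and 0.634% of those of Psmb6 against 1.05%, 1.03% and 1.20% (log2 difference -0.20, exact permutation p = 0.8, adjusted 0.8). Reads of Psmb10 were 14.2%, 12.1% and 8.30% of those of Psmb7 against 9.38%, 9.46% and 9.67% (log2 difference 0.24, exact permutation p = 0.4, adjusted 0.75). In each pair the groups overlapped, and with 3 libraries against 3 the exact permutation test cannot go below p = 0.1. Leukocytes are rich in immunoproteasomes, and the summed CPM of 12 leukocyte markers was 278, 495 and 207 in blister 1, 2 and 3, highest in the library where Psmb8 stood apart, and 115 to 170 in controls. The part of leukocytes in these values was not tested.

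**Figure D3:**
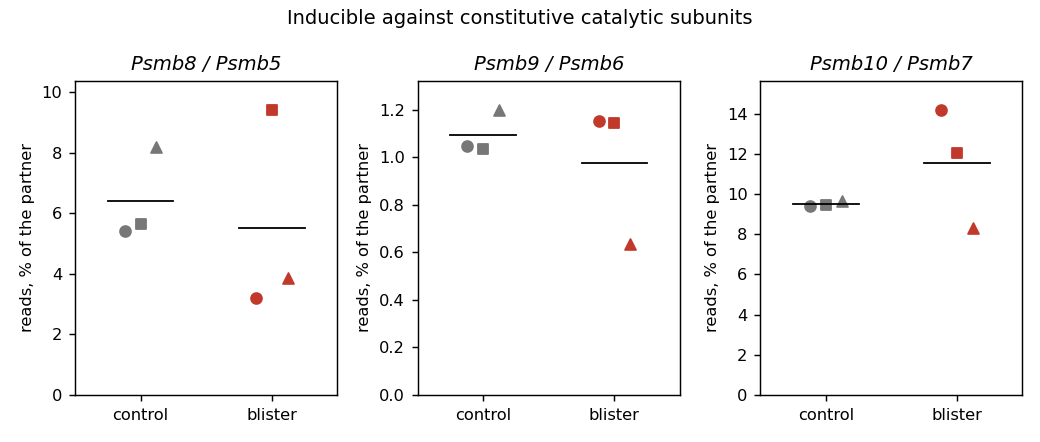
Reads of each inducible catalytic subunit as a percent of those of its constitutive partner (y axis), by group. Circles, squares and triangles are replicates 1, 2 and 3 and lines are group means. Blister 2 is the highest library for Psmb8 (9.42%), blister 3 the lowest for Psmb9 (0.634%) and for Psmb10 (8.30%), and the groups overlap in all 3 pairs.

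Of the other symbols, Psma8, the testis alpha subunit, had 4 counts over the 3 blister libraries and 5 over the 3 controls. Psmb11, the catalytic subunit of the thymic cortex, had 0 and 5 counts. A count of 0 allows up to 3 counts, or 0.1002 CPM over the blister group, for counting error only. Psmc3ip was at 9.27, 12.9 and 10.7 CPM against 12.4, 12.2 and 11.2 CPM (-0.13 ± 0.19, edgeR adjusted p = 0.653), with the groups overlapping. The 14 symbols outside the constitutive 26S particle, 12 of which were tested, had a median of 0.31 with 1 called.

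Levels can be compared between genes only per length of transcript. As CPM per kb of merged protein-coding exon in the GENCODE M21 annotation, the control means of the constitutive subunits had medians of 84.7 in the alpha ring, 121 in the beta ring, 92.6 in the ATPase ring and 66.3 in the lid. Among the genes of the rule Psmb6 stood highest, at 186 ± 29.5 CPM per kb (SD, n = 3) in controls and 258 ± 51.0 in blister libraries. It was followed in controls by Psmb4 (182 ± 25.1) and Psmc5 (168 ± 18.7), neighbours that do not differ beyond their spread. Psmd11 (15.3 ± 0.745) and Psma3 (24.7 ± 1.78) were the lowest 26S subunits of the rule in controls by this measure. Merged exons take in every annotated isoform, so their length can exceed that of the transcripts expressed, and the ranks depend on it. Psma3 and Psma5 had similar control means of 70.4 and 74.7 CPM. Their merged lengths of 2846 and 1239 bases set them at 24.7 and 60.3 CPM per kb. The chaperones had a control median of 12.1 and the immunoproteasome genes one of 4.19. Per length, Psmb10 was 10.2% ± 2.64 (SD, n = 3) of Psmb7 in blister and 8.41% ± 0.132 in control libraries. Psmb8 was 3.04% ± 1.88 and 3.54% ± 0.851 of Psmb5, and Psmb9 was 0.576% ± 0.175 and 0.646% ± 0.0547 of Psmb6.

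**Figure D4:**
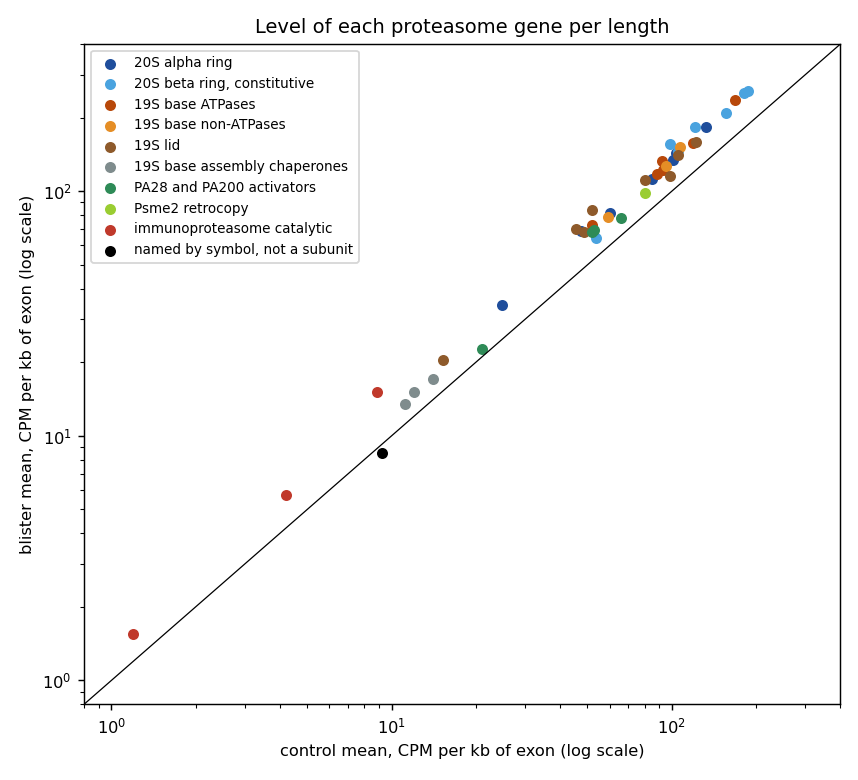
Mean level of each tested proteasome gene in the 3 control (x axis) and 3 blister (y axis) libraries, in CPM per kb of exon on log axes, coloured by class. The line marks equal levels. Constitutive subunits form a band above the line, reaching 186 in control and 258 in blister libraries for Psmb6, and the immunoproteasome genes lie at the lower left.

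Genes that work with the proteasome were read in the same fit from 5 lists. The share to set beside each count of genes that rose is the 9.74% of all genes tested. Of 15 tested genes for assembly factors and other components 7 rose and 0 fell (median 0.43). They include the deubiquitinases bound to the regulatory particle. Usp14, which trims ubiquitin chains, was at 86.8, 80.4 and 72.4 CPM over blister 1 to 3, compared with 49.6, 48.9 and 47.4 CPM over control 1 to 3. The groups lay far apart, and Usp14 rose by 0.72 ± 0.11 (SE, edgeR adjusted p = 0.0088). Uchl5 was at 71.3, 84.5 and 57.5 CPM against 43.8, 42.4 and 38.2 CPM (0.78 ± 0.16, edgeR adjusted p = 0.0178), also without overlap, and its receptor on the particle, Adrm1, rose by 0.49 (edgeR adjusted p = 0.0493). The core assembly chaperone Psmg1 rose by 0.62 (edgeR adjusted p = 0.0425). Pomp, which matures the core, was at 208, 200 and 158 CPM against 150, 164 and 115 CPM (0.40 ± 0.17, edgeR adjusted p = 0.127), with blister 3 below control 2.

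Of 10 tested regulators of proteasome genes 3 rose and 0 fell (median 0.18). Nfe2l1 itself was at 312, 209 and 342 CPM against 259, 314 and 235 CPM, with blister 2 the lowest of all 6 libraries (0.10 ± 0.21, edgeR adjusted p = 0.76). Its protein is controlled mainly after translation, and RNA does not report that control. Ngly1, the enzyme that removes sugars from the Nfe2l1 protein, rose by 0.50 (edgeR adjusted p = 0.0342). Nfe2l2, the antioxidant response factor Nrf2, was at 111, 83.0 and 89.2 CPM against 53.7, 57.6 and 54.6 CPM. Its groups did not overlap, and it rose by 0.77 ± 0.13 (edgeR adjusted p = 0.0124). Bach1, a repressor of the same element, rose by 0.69 ± 0.16 (edgeR adjusted p = 0.0236) from 48.5, 44.8 and 63.7 CPM in controls to 89.8, 75.8 and 88.6 CPM in blister libraries.

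In the list for ubiquitin supply and shuttling 2 of 17 tested genes rose and 0 fell, with a median of 0.20, a share (11.8%) near that of all genes. They were Rad23b, which carries ubiquitinated proteins to the proteasome, and Vcp, the segregase that extracts them from complexes. Rad23b was at 289, 241 and 265 CPM against 197, 192 and 189 CPM (0.46 ± 0.12, edgeR adjusted p = 0.0326). Vcp was at 285, 292 and 255 CPM against 210, 223 and 178 CPM (0.45 ± 0.13, edgeR adjusted p = 0.0484). In both genes all blister libraries were above all controls.

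Downstream of the proteasome, 4 of 12 tested genes of MHC class I antigen processing rose and 0 fell (median 0.35). These were Canx, Pdia3 and Calr, chaperones of the endoplasmic reticulum that also fold many other proteins, and the peptide trimmer Erap1. Pdia3 was at 828, 794 and 665 CPM against 504, 561 and 459 CPM (0.58, edgeR adjusted p = 0.0304), and Canx at 395, 357 and 407 CPM against 274, 282 and 263 CPM (0.50, edgeR adjusted p = 0.0245). Neither overlapped between groups. The interferon-inducible members Tap1 and B2m did not pass. Tap1, the peptide transporter subunit, was at 36.9, 37.7 and 37.5 CPM against 41.6, 44.2 and 43.8 CPM, below all controls in each blister library (-0.21 ± 0.10, edgeR adjusted p = 0.163). B2m, the light chain of class I molecules, was at 89.9, 139 and 77.4 CPM against 94.3, 90.5 and 93.5 CPM (0.13, edgeR adjusted p = 0.665), high in blister 2 alone.

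Of 18 tested interferon response genes 3 rose and 0 fell (median 0.08), among them Irf9 and Isg15. Irf9, a transcription factor of interferon signalling, rose from 30.2, 34.7 and 33.7 CPM in controls to 49.0, 48.9 and 40.8 CPM in blister libraries (0.49, edgeR adjusted p = 0.0331), and Isg15, a ubiquitin-like modifier, from 4.76, 6.51 and 4.78 CPM to 8.99, 15 and 8.32 CPM (edgeR adjusted p = 0.0467). Irf1, an activator of the immunoproteasome genes, had a log2 fold change of 0.82 (edgeR adjusted p = 0.0789). With 1 library left out, Usp14 kept its call in 6 of 6 fits, Nfe2l2 in 5 (edgeR adjusted p = 0.0559 without control 1) and Bach1 in 3, while Uchl5, Rad23b and Canx did in 2 and Vcp, Pdia3 and Irf9 in 1.

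Markers of the cell types in the suspension differed between the groups. Keratinocyte markers were present in every library, at a summed 107338 to 195883 CPM in blister and 65658 to 90559 CPM in control libraries, with none of the 10 at 0. Of the 10, 5 rose and 0 fell. Krt1, the most abundant, and Krt10 overlapped between groups and did not pass. Krt15 was lower in each blister library than in each control (-0.64, edgeR adjusted p = 0.0695). Neutrophil markers summed to 339 to 1077 CPM in blister and 30.7 to 39.5 CPM in control libraries, and 12 of 12 rose. Markers of dermal fibroblasts summed to 295 to 1024 against 981 to 6809 CPM (5 of 10 fell, 1 rose). Of 12 hair follicle markers 10 fell. Their sum was 3895 to 5096 against 4798 to 6820 CPM, most of it the keratin gene Krt17 in blister libraries, at 3611, 4786 and 4263 CPM against 3201, 2918 and 2339 CPM (log2 fold change 0.58, edgeR adjusted p = 0.0526). Without Krt17 the sum was 231 to 834 against 2364 to 3620 CPM, with no overlap. Endothelial markers summed to 6.52 to 18.4 against 14.0 to 81.8 CPM (1 of 7 fell). Those of macrophages and Langerhans cells summed to 378 to 525 against 486 to 547 CPM (1 of 14 fell). Without Epcam, the most abundant, this sum was 192 to 299 against 250 to 327 CPM. The log2 fold change was above 0 for 2 of the 14, among them Cd207. Cd207 was at 3.30, 1.38 and 1.36 CPM against 1.30, 0.560 and 0.569 CPM (1.34, edgeR adjusted p = 0.102), without overlap. T cell markers summed to 43.6 to 61.9 against 66.3 to 77.9 CPM (0 of 7 passed, 1 at an unadjusted p under 0.05). Without Thy1, the most abundant, that sum was 18.0 to 20.3 against 18.4 to 36.8 CPM, which overlap. The part of these cell types in the proteasome values was not tested. With the level of the dermal markers as a covariate the median of the 43 genes was 0.36 and 0 were called, where 197 of all genes were.

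How many proteasome genes pass depended on the scaling and on single libraries. The 3 blister libraries had TMM factors of 0.841, 0.957 and 0.953, those of the controls were 1.11, 1.06 and 1.11, and the 50 most abundant genes took 20.6% to 27.8% of counts in blister and 14.2% to 17.7% in control libraries. As a share of raw counts, the 45 genes held 0.620%, 0.709% and 0.578% over blister 1 to 3, compared with 0.587%, 0.578% and 0.521% over control 1 to 3, which overlap. With TMM factors their summed CPM was 7379, 7418 and 6067 against 5288, 5458 and 4715, which do not. Scaled by library size alone, the median of all genes was -0.25 and that of the proteasome genes 0.16, with 1 proteasome gene called. In that fit 3.88% of all genes rose. In this scaling and 3 others the proteasome median stayed 0.42 above that of all genes. A change of scaling shifts all genes by nearly the same amount, so this gap could hardly move and does not test the scaling. With each library left out in turn, Psmd14 was called in 5 of 6 fits (edgeR adjusted p = 0.0542 without control 1), while each of the other 12 calls held in 1 or 2 of the 6. The number called ran from 0 without control 1 to 29 without blister 3. It was 1 without blister 1, 6 without blister 2, 1 without control 2 and 1 without control 3. The share of all genes that rose moved too: 2.15% without control 1, 3.35% without control 2 and 3.83% without control 3. It was 3.74% without blister 1, 7.23% without blister 2 and 13.9% without blister 3. Over these fits the median of the proteasome genes stayed between 0.38 and 0.54.

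**Figure D5:**
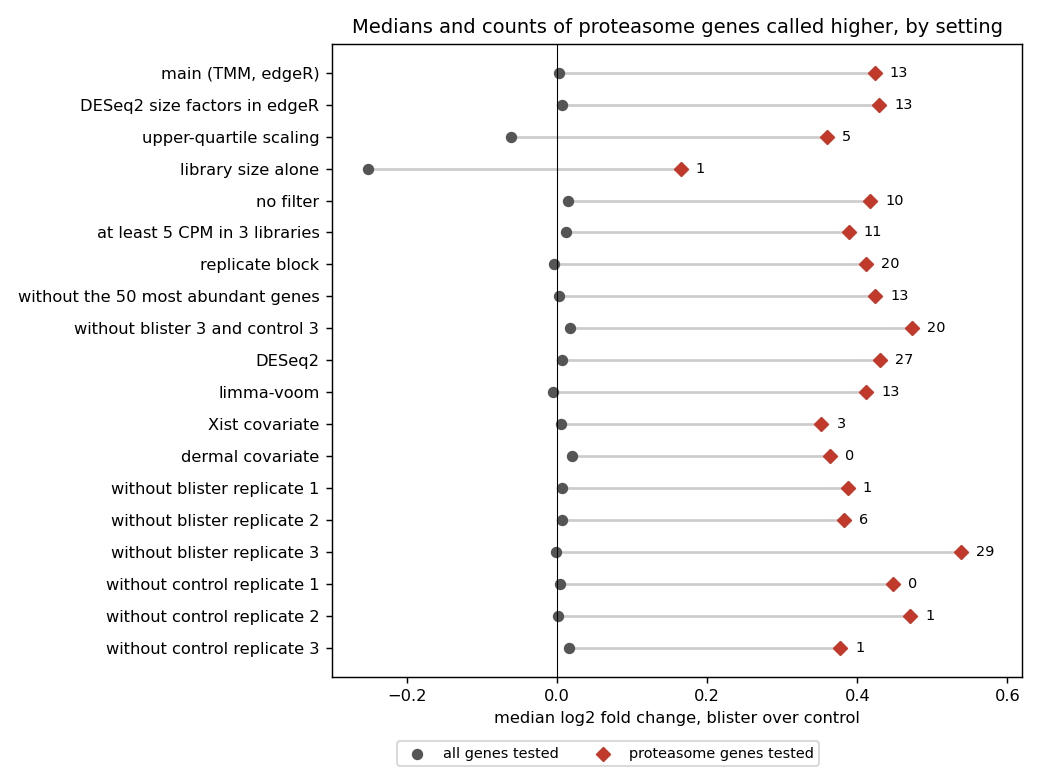
Median log2 fold change (x axis) of the 43 proteasome genes (red diamonds) and of all genes tested (grey circles) under each processing alternative. The number beside a diamond is how many proteasome genes were called higher. The gap between the medians stays between 0.34 and 0.54 while the count runs from 0 to 29. The share of all genes called higher runs from 1.08% with the dermal covariate to 13.9% in DESeq2. A change of scaling alone shifts both medians by nearly the same amount, so the gap does not test scaling.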

How the data were processed

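The authors deposited raw counts, whole numbers beside gene symbols, in 1 table for each of 6 libraries with 7600567 to 15912863 counts. The submitters' processing notes name HISAT2 2.0.0, featureCounts and the builds NCBIM37 and mm9. Whether counting used strand is not stated there, so reads of overlapping genes cannot be told apart: 13 of the 45 genes share exon bases with another gene in GENCODE M21, among them the called Psmb5, Psmd1 and Psmd13, and Psmb9 with Tap1.

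All genes were fitted with edgeR 4.0.16 (R 4.3.3): TMM scaling, filterByExpr (minimum count 10, minimum total count 15), quasi-likelihood F-tests, and Benjamini-Hochberg adjustment over all genes tested, with a threshold of 0.05. Standard errors (SE) are the log2 fold change over the square root of F. Ratios of paired subunits used log2 with a prior count of 0.5 and exact permutation tests. The script was tested on simulated data. Alternatives used limma 3.58.1 and DESeq2 1.42.0, 2 covariates, and each library left out in turn. Within-group library pairs differed beyond sampling noise. Plots were drawn with matplotlib 3.10.9.

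The proteasome genes, the other lists and the covariates were chosen with earlier results of these data known. Values in every library are given for the inducible subunits and their partners, the activators, the smallest p and the largest and smallest fold change in each other class, the 2 smallest p of each list of interacting genes, and Nfe2l1, Pomp, Tap1 and B2m. Other genes were chosen after their values were seen. A gene that the rule names is not reported here.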

Additional observations from a re-analysis of the deposited data

How the results depend on the processing

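The count of proteasome genes called higher was 13, and it was 5 with upper-quartile scaling, 1 with library size alone, 20 with the replicate block, 20 without blister 3 and control 3, 27 in DESeq2, 3 with Xist as a covariate and 0 with the dermal covariate. Leaving out 1 library at a time gave 0 to 29. It was 10 without the filter, 11 with at least 5 CPM in 3 libraries, and 13 in each of the other 3 alternatives. In every alternative 0 were called lower. The share of all genes that rose, 9.74% in the main fit, moved as well. It was 7.04% with upper-quartile scaling, 3.88% with library size alone, 9.73% with the replicate block and 9.57% without blister 3 and control 3. DESeq2 gave 13.9%, the Xist covariate 4.95%, the dermal covariate 1.08%, no filter 6.22% and the 5 CPM filter 9.79%. With 1 library left out it was 2.15% to 13.9%. The count of all genes called, 2993, was 1731 with the Xist covariate, 197 with the dermal covariate and 785 to 4061 with 1 library left out. The median of the proteasome genes was 0.16 with library size alone, where the median of all genes was -0.25. Calls were 45.7% higher among all genes called, 34.4% with upper-quartile scaling, 16.1% with library size alone and 76.6% with the dermal covariate. Whether replicate numbers pair the libraries is not in the labels. Deviations from the group mean correlated at 0.21, -0.26 and 0.04 between libraries of the same number. Not every library correlated best with its own number. With 3 libraries in each group these values do not settle it, and the block is given for its count alone. Directions turned for Psme4 (-0.14), Psme1 (-0.017), Psmd8 (-0.025), Nfe2l1 (-0.16) and B2m (-0.11) with library size alone. They also turned for Psmd10 (-0.00072) and Nfe2l1 (-0.41) with the dermal covariate, for Nfe2l1 without blister 3 and control 3 (-0.13). With 1 library left out, the range was -0.31 to 0.71 for Psmb8 and -0.14 to 0.31 for B2m (lowest without blister 2), -0.043 to 0.29 for Nfe2l1 (lowest without blister 3) and -0.34 to 0.074 for the log2 ratio of Psmb9 to Psmb6 (highest without blister 3). That ratio was 0.14 without blister 3 and control 3. None of these had been called, and the cause of each change was not tested. Low counts limit what can be said of Psmb8, Psmb9, Psmb10 and Psmc3ip, and kept Psma8 and Psmb11 out of the test.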

Other observations

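The 3 deubiquitinases of the 26S particle, Psmd14, Uchl5 and Usp14, had larger mean log2 differences than the median 26S subunit. They were chosen after their values were seen, so no test is given. Psmd14 was at -0.62, -0.67 and -0.51 relative to the median 26S subunit of the same library (log2 CPM) in blister 1, 2 and 3 and at -0.82, -0.77 and -0.75 in control 1, 2 and 3. Uchl5 was at -1.55, -1.36 and -1.50 against -1.72, -1.77 and -1.67, and Usp14 at -1.26, -1.44 and -1.16 against -1.54, -1.56 and -1.37. The blister mean was above the control mean by 0.18, 0.25 and 0.20 in Psmd14, Uchl5 and Usp14. For Psmd14 and Uchl5 every blister library lay above every control, while for Usp14 blister 2 lay below control 3.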
